A study of Mus musculus with 8 samples.

Results

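The primitive endoderm genes examined here were Gata4, Gata6, Sox7, Sox17, Pdgfra, Dab2, Cubn and Sparc. They were taken by gene name from the expression tables of the series, and make up 8 of the 24849 genes listed. A total of 13214 genes had a mean over 1 FPKM (a count of sequenced fragments scaled by exon length and by library size) in at least 1 of the 4 conditions and were tested, among them 7 of the 8. Sox7 stayed under that minimum, with a highest condition mean of 0.695 FPKM, and is given by its values only. Sox17 and Pdgfra passed it through wild type at day 6 alone, and Cubn through the day 6 conditions alone. A count over the genes that passed is therefore a description of these samples.

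Primitive endoderm is the extraembryonic lineage that separates from the epiblast inside the blastocyst and gives rise to visceral and parietal endoderm of the yolk sac. FGF signalling through the MAP kinase pathway turns on GATA6, which opposes NANOG, and GATA4, SOX17 and SOX7 follow. Embryonic stem cells are counterparts of the epiblast, and inhibition of the MAP kinase kinase, as in 2i medium, holds this endoderm programme down.

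RNA was sequenced from mouse embryonic stem cells (mESCs) of the MPI-II line, of 129S2/SvPas origin, with the wild-type or the Pcgf5-/- genotype. PCGF5 is a subunit of a variant Polycomb repressive complex 1, and the study asked what its loss does to neural differentiation. Day 0 cells of both genotypes grew on plates coated with feeder cells in medium with serum, leukaemia inhibitory factor and the 2i inhibitors CHIR99021 and PD0325901. Day 6 cells of both genotypes had been kept in N2B27, a serum-free medium that leads mESCs to a neural fate. The Pcgf5-/- cells had been made with TALENs against the second exon of Pcgf5, selected with puromycin and G418 and picked as single colonies. How many colonies stand behind the samples is not given in the sources used here. Each of the 4 conditions had 2 samples, named sample 1 and sample 2 after the numbers in their labels, and pairs of values are given in that order.

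The labels held for the targeted gene. Pcgf5 stood at 5.18 and 3.63 FPKM in wild type, against 1.28 and 1.84 FPKM in the Pcgf5-/- samples at day 0 (log2 fold change -1.07, SE 0.28, limma adjusted p = 0.105). At day 6 it stood at 9.16 and 5.06 FPKM in wild type, against 0.669 and 0.457 FPKM in the Pcgf5-/- samples, a log2 fold change of -2.33 (SE 0.28, limma adjusted p = 0.00421). Neural progenitor genes also marked the day 6 samples: Sox1 lay between 22.7 and 67.9 FPKM there and under 1 FPKM at day 0. The samples of a condition correlated over all tested genes with r between 0.972 and 0.974, and the relative sequencing depth, read from the steps between low values, ranged from 0.986 to 1.28 of that of wild-type sample 1 at day 0. FPKM values do not give the number of fragments behind a gene, so precision is given by the spread between samples and by the 95% bounds that Cufflinks lists beside each value.

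GATA4 and GATA6 are zinc finger transcription factors that open the endoderm programme. Gata4 (chromosome 14, 63817752 to 63864097, build mm9) had 0.957 and 0.404 FPKM in wild type, against 0.875 and 1.23 FPKM without PCGF5 at day 0. At day 6 it had 10.6 FPKM in wild-type sample 1 and 0.706 FPKM in sample 2, and 3.89 and 1.24 FPKM in the Pcgf5-/- samples. The wild-type value of sample 1 was thus the highest of all 8 samples while that of sample 2 lay within the range of day 0. Both Pcgf5-/- samples lay between the wild-type samples. The mean of wild type at day 6 was 5.65 ± 6.99 FPKM (SD, n = 2) and that of Pcgf5-/- cells 2.57 ± 1.88 FPKM (SD, n = 2). The Cufflinks bounds of the wild-type samples lay far apart, at 9.42 to 11.6 and 0.481 to 0.928 FPKM, so that the gap between them exceeded the counting error given for each. In RNA from whole cultures, fewer cells of a type cannot be told apart from less RNA of a gene per cell.

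Gata6 had 0.665 and 0.169 FPKM in wild type, against 0.496 and 1.66 FPKM without PCGF5 at day 0. Its values at day 6 were 5.70 and 0.405 FPKM in wild type, against 1.42 and 0.246 FPKM without PCGF5. In both genotypes sample 1 again stood above sample 2, and sample 2 fell within the span of the day 0 values.

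SOX7 and SOX17 are related HMG box factors of the SoxF group, expressed after GATA6 in the lineage and also known from endothelium. Sox17 (chromosome 1, 4481009 to 4487435) had 0.151 and 0.125 FPKM in wild type, against 0.374 and 0.402 FPKM without PCGF5 at day 0. The log2 fold change between the genotypes at day 0 was 0.29 (SE 0.43, limma adjusted p = 0.795). At day 6 Sox17 had 2.48 and 0.187 FPKM in wild type, against 0.465 and 0.0248 FPKM without PCGF5. Sox7 (chromosome 14, 64562543 to 64569569) had 0.0433 and 0.0549 FPKM in wild type, against 0.0775 and 0.101 FPKM without PCGF5 at day 0. At day 6 Sox7 had 1.30 and 0.0943 FPKM in wild type, against 0.793 and 0.241 FPKM without PCGF5. For both SOX genes the single library above 1 FPKM was wild-type sample 1 at day 6.

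PDGFRA is the receptor tyrosine kinase for PDGF-A and one of the earliest surface markers of primitive endoderm. It is also found on fibroblasts and on precursors of oligodendrocytes. Pdgfra (chromosome 5, 75548316 to 75594229) had 1.09 and 0.327 FPKM in wild type, against 0.685 and 0.743 FPKM without PCGF5 at day 0. At day 6 it had 4.41 and 0.319 FPKM in wild type, against 0.864 and 0.117 FPKM without PCGF5. Wild-type sample 2 at day 6 did not rise above any day 0 sample, and Pcgf5-/- sample 2 lay below all of them. Of the oligodendrocyte precursor genes, Sox10 did not exceed 0.161 FPKM in any sample, Olig2 had 0.575 and 1.18 FPKM in wild type, against 1.11 and 1.67 FPKM without PCGF5, at day 6, and Cspg4 reached 1.96 FPKM at day 0. The part of such cells in the Pdgfra values was not tested.

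DAB2 is an endocytic adaptor that sorts receptors into clathrin-coated pits and is needed for the ordering of primitive endoderm at the surface of the inner cell mass. Dab2 (chromosome 15, 6249789 to 6390709) had 1.82 and 0.757 FPKM in wild type, against 1.20 and 2.96 FPKM without PCGF5 at day 0. At day 6 it had 30.0 and 6.50 FPKM in wild type, against 9.75 and 5.93 FPKM without PCGF5. All 4 samples of day 6 lay above all 4 of day 0, which among the others held for Cubn alone. That is 2 of the 7 tested genes, and the same separation was met by 30.5% of all tested genes.

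CUBN, or cubilin, is the large receptor for vitamin B12 bound to intrinsic factor and for many serum proteins, and it works at the surface of visceral endoderm together with amnionless and megalin. Cubn (chromosome 2, 13197965 to 13413503) was nearly silent at day 0, with 0.0480 and 0.0254 FPKM in wild type, against 0.0698 and 0.0336 FPKM without PCGF5. At day 6 it had 11.2 and 0.225 FPKM in wild type, against 3.54 and 0.152 FPKM without PCGF5. Sample 1 was 49.6 times sample 2 in wild type and 23.4 times in Pcgf5-/- cells, the widest gaps among the 8 genes.

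The 5′ flanks of Dab2 and Cubn are shown as a window with and a window without the short motifs that GATA factors, measured beside them, are known to bind. Promoter windows of 300 bases, from 250 before a start site to 50 after it, were found for 4 of the 8 genes (Cubn, Dab2, Pdgfra and Sparc) in RefSeq on build GRCm38.p6, which is not the build of the expression files. The windows were searched on both strands for the hexamer AGATAA, for its form that ends in G (AGATAG), and for the forms of each that begin with T, which read TGATAA when ending in A or otherwise TGATAG. No hexamers overlapped in the lines shown. Capitals mark each hexamer as it reads on the strand shown. For Dab2 at chr15:6299539-6299838, plus strand, and Cubn at chr2:13491827-13492126, minus strand, the sequences were as follows.
Dab2: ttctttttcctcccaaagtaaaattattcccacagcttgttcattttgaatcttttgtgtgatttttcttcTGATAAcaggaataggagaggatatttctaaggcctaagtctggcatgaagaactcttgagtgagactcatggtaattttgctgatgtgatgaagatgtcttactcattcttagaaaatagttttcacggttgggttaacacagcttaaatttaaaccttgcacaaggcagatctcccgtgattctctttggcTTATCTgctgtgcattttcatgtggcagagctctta
Cubn: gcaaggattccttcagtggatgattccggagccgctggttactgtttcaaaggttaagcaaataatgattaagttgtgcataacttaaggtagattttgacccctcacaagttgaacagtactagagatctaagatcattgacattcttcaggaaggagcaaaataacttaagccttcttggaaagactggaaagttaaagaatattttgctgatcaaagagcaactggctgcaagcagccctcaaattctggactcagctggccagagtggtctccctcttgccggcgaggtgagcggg
The Dab2 window held TGATAA at position -179 and AGATAA on the opposite strand at position 15, counted from the start site. The Cubn, Pdgfra and Sparc windows and that of a further Dab2 start site held none of these hexamers. Of all 32851 promoter windows, 29.8% held at least 1. The letters ACAAT, the core of SOX sites, were in 0 of the 5 windows of these genes and in 31.0% of all windows. A match is a description of the letters, and its absence says only that they are not in this window.

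SPARC, or osteonectin, is a collagen-binding matrix glycoprotein secreted in quantity by parietal endoderm and also by fibroblasts and many other cells. Sparc (chromosome 11, 55207661 to 55233582) was the most abundant of the 8 genes in every sample. It had 158 and 124 FPKM in wild type, against 140 and 259 FPKM without PCGF5 at day 0. At day 6 it had 161 and 115 FPKM in wild type, against 84.5 and 73.8 FPKM without PCGF5. Both Pcgf5-/- samples of day 6 lay below all other samples, and the share of all tested genes with this order is not given here. The mean of Pcgf5-/- cells was 79.1 ± 7.53 FPKM (SD, n = 2) against 138 ± 32.4 FPKM (SD, n = 2) in wild type.

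**Figure D1:**
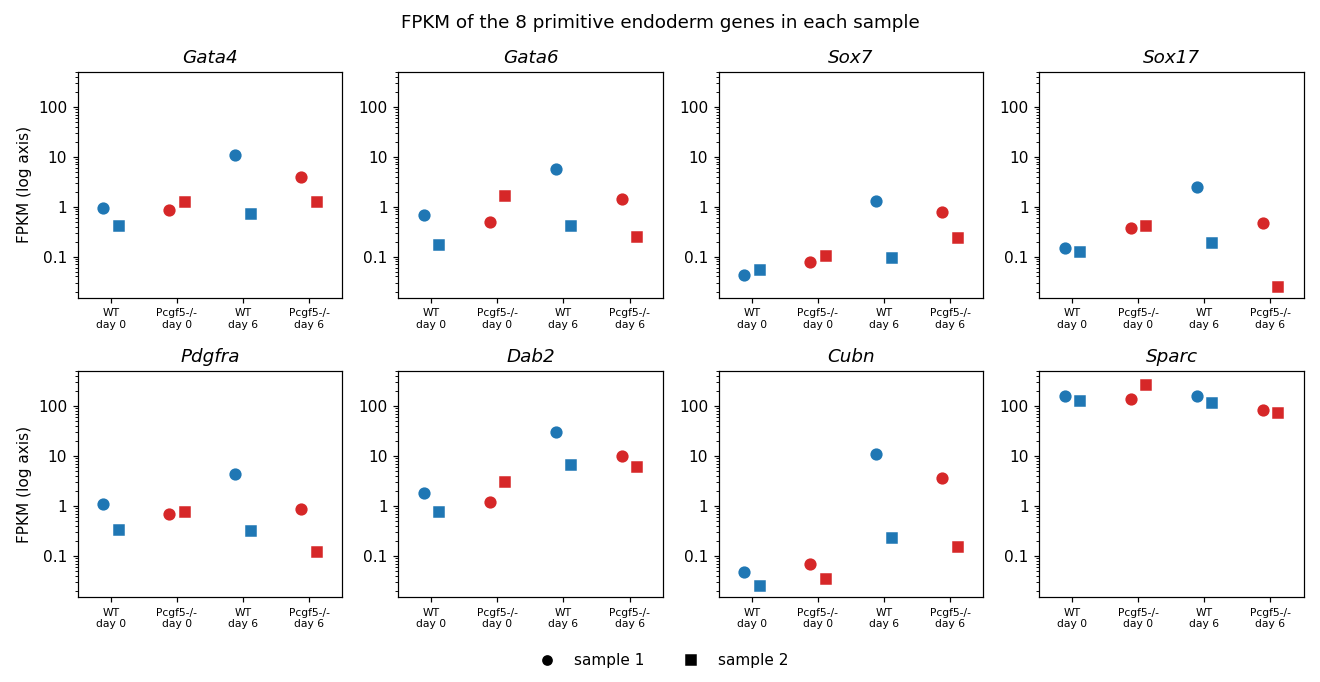
FPKM on a shared log axis (vertical) of each of the 8 genes in the 4 conditions (horizontal), with wild type in blue, Pcgf5-/- in red, circles for sample 1 and squares for sample 2. In 7 of the 8 panels the highest point is wild-type sample 1 at day 6, and Sparc alone stays above 70 FPKM in all samples.

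The samples of day 6 differed by their number within each genotype. For 8 of the 8 genes sample 1 stood above sample 2 in both genotypes at day 6, against 32.7% of all tested genes. The same was true of 1 gene, Cubn, at day 0, against 23.6% of all tested genes. In wild type the ratio of sample 1 to sample 2 at day 6 lay between 13.2 and 15.0 for Gata4, Gata6, Sox7, Sox17 and Pdgfra, and was 4.61 for Dab2 and 1.40 for Sparc. In wild type the gap was thus nearly equal for the 4 transcription factors and the receptor, wider for Cubn (49.6), and smaller for Dab2 and Sparc. In Pcgf5-/- cells the ratio was 23.4 for Cubn, 18.7 for Sox17, 7.41 for Pdgfra and 5.77 for Gata6. For Sox7 it was 3.29, for Gata4 3.14, for Dab2 1.64 and for Sparc 1.14. The ratio of Sox17 rests on 0.0248 FPKM in Pcgf5-/- sample 2, with Cufflinks bounds of 0 to 0.149 FPKM. On the log2(FPKM + 1) scale its gap was 0.52, below those of Gata6 (0.96) and Pdgfra (0.74). A difference of at least 1 on the log2(FPKM + 1) scale in both genotypes was reached by Gata4 (2.76 and 1.13) and Cubn (3.31 and 1.98), that is 2 of the 7 tested genes against 0.242% of all tested genes. Cubn entered the test only through its day 6 means, which sample 1 carried, so this count is a description and no support. The same rule was met at day 0 by 0.28% of all tested genes and by none of these. This comparison of samples was chosen after the values had been seen. It rests on 2 samples of each genotype, and whether equal numbers mark cultures handled together is not stated in the labels.

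**Figure D2:**
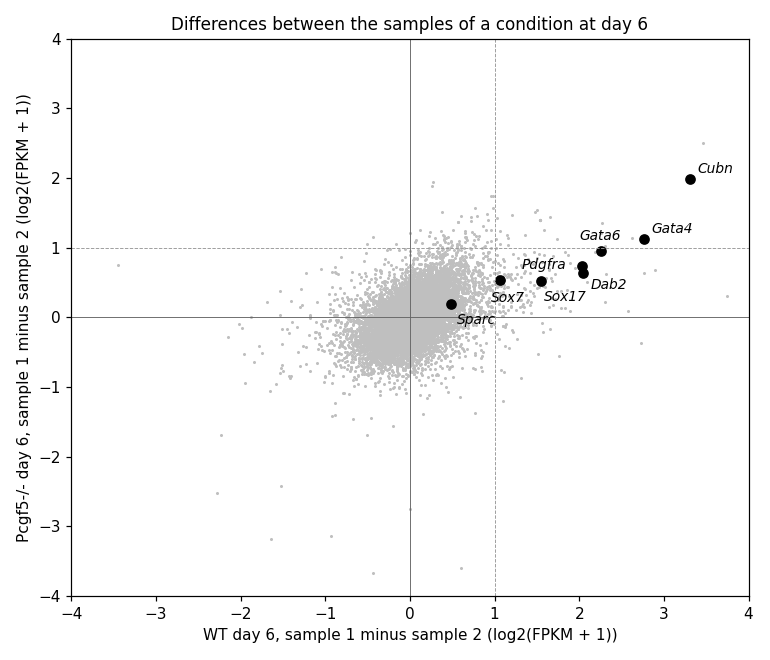
Sample 1 minus sample 2 at day 6 on the log2(FPKM + 1) scale, in wild type (horizontal) and in Pcgf5-/- cells (vertical), for all tested genes (grey) and the 8 primitive endoderm genes (black). All 8 lie above 0 on both axes, Gata4 and Cubn lie beyond the dashed lines at 1 on both, and 20 genes beyond 4 on either axis are not drawn.

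The genotypes were also set side by side within a sample number. Between the samples numbered 1 at day 6, wild type was above Pcgf5-/- for 8 of 8 genes, by 1.63 times for Sox7 to 5.32 times for Sox17, as it was for 48.3% of all tested genes. Between the samples numbered 2, wild type was above for 6 of 8, as it was for 47% of all tested genes. The exceptions were Gata4, where the ratio of wild type to Pcgf5-/- was 0.570, and Sox7, where it was 0.392.

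Loss of PCGF5 was compared with wild type at each day to ask whether these genes depend on it. At day 0, 0 of the 7 tested genes passed the limma test in either direction and 0 had an unadjusted p under 0.05, where 0.288% of all tested genes were called higher and 0.0454% lower in Pcgf5-/- cells. The estimates ran from 0.02 for Cubn to 0.52 for Gata6 on the log2 scale. At day 6, 0 of the 7 passed and 1, Sparc, had an unadjusted p under 0.05, where 9.57% of all tested genes were called higher and 7.05% lower. All 7 estimates were below 0 at day 6, with a median of -0.78 against 0.02 over all tested genes. For Sox17 and Pdgfra, which passed the minimum through wild type at day 6 alone, the minimum favoured this sign. The count and the median are therefore a description and no support, and the share of all tested genes below 0 is not given here. Gata4 had -0.43 (95% interval -2.18 to 1.33), Gata6 -0.82 (-2.36 to 0.72) and Sox17 -0.73 (-1.72 to 0.26). For the receptors and the adaptor the values were -0.89 (-2.22 to 0.44) for Pdgfra, -0.82 (-2.23 to 0.59) for Dab2 and -0.75 (-2.97 to 1.46) for Cubn. These intervals include no change as well as falls larger than any of the estimates, and 2 samples in a condition did not resolve between them. Sparc had the narrowest interval, at -0.78 (-1.43 to -0.12, limma adjusted p = 0.0979). The sign rested on wild-type sample 1 of day 6: without it the estimates of Gata4 (0.96), Gata6 (0.31), Dab2 (0.20) and Cubn (0.90) turned positive. Sox17 and Pdgfra then fell under the minimum and had no fit, and their differences of means were 0.046 and 0.13. Without wild-type sample 2 of day 6, Sox17 (-1.504, limma adjusted p = 0.0251) and Pdgfra (-1.91, limma adjusted p = 0.0399) passed the threshold, but wild type was then the single high library through which both entered the test, so these calls are no support. In addition, without Pcgf5-/- sample 2 the estimates of Gata4 (0.14) and Cubn (0.24) turned positive.

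Sparc lies on a chromosome whose genes were shifted as a whole. The 1086 tested genes of chromosome 11 had a median log2 fold change, Pcgf5-/- over wild type, of 0.48 at day 0 and 0.38 at day 6. Chromosome 6 was shifted as well, by 0.41 and 0.37. The medians of the remaining chromosomes spanned 0.04 to 0.12 at day 0 and -0.06 to 0.03 at day 6. Once the median of each chromosome was taken out, Sparc was -1.15 at day 6 (limma adjusted p = 0.0371) and -0.09 at day 0.

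The change over the 6 days was compared within each genotype to ask whether endoderm genes rose during neural induction. In wild type Dab2 rose, with a log2 fold change of 2.78 (SE 0.61, limma adjusted p = 0.00621), and was 1 of the 7 tested genes called, with 1 at an unadjusted p under 0.05, where 34.2% of all tested genes were called higher and 16.2% lower. Without wild-type sample 1 of day 6 the rise of Dab2 was 1.75, and the call remained under each sample left out. The other estimates in wild type were 1.90 (SE 0.96) for Cubn, 1.42 (SE 0.77) for Gata4, 1.14 (SE 0.67) for Gata6, 0.84 (SE 0.43) for Sox17, 0.68 (SE 0.58) for Pdgfra and -0.04 (SE 0.28) for Sparc, with limma adjusted p between 0.133 and 0.909. The spread between the wild-type samples of day 6 was as wide as these changes. The counts of calls over the days, in both genotypes, came from a fit without sample number. Allowing for sample number within each day changed them, as given below. Without wild-type sample 2 of day 6, 7 genes (all but Sparc) were called higher, a count partly fixed by the minimum, since Sox7, Sox17 and Pdgfra passed it only through the single high library that remained.

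In Pcgf5-/- cells Sparc fell by 1.26 on the log2 scale (SE 0.28, limma adjusted p = 0.0122), the 1 call among 7 genes, where 21.9% of all tested genes were called higher and 10.4% lower. Dab2 had 1.55 (SE 0.61, limma adjusted p = 0.0869), and these 2 genes had an unadjusted p under 0.05. Without Pcgf5-/- sample 2 of day 0 the value of Sparc was -0.82 (limma adjusted p = 0.05002), and without Pcgf5-/- sample 2 of day 6 it was -1.17 (limma adjusted p = 0.0709), so that its call rested on both. The remaining estimates were 1.12 (SE 0.96) for Cubn, 0.70 (SE 0.77) for Gata4, -0.18 (SE 0.43) for Sox17, -0.20 (SE 0.67) for Gata6 and -0.25 (SE 0.58) for Pdgfra. Over all tested genes the median change was 0.22 in wild type and 0.13 in Pcgf5-/- cells, and the split of the calls depended on the scaling: quantile normalization gave 3181 higher and 3020 lower in wild type in place of 4522 and 2146, and 1961 and 1734 in Pcgf5-/- cells in place of 2898 and 1373. With chromosome medians removed the numbers were 2757 and 4075 in wild type and 1885 and 2046 in Pcgf5-/- cells.

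A test of the genotype effect at day 6 against that at day 0 called 0 of the 7 genes, with 1 at an unadjusted p under 0.05, where 1.34% of all tested genes were called higher and 1.75% lower. That gene was Sparc, at -1.22 (SE 0.40, limma adjusted p = 0.125). The call was made without Pcgf5-/- sample 1 of day 0 (-1.66, limma adjusted p = 0.0470). The other 6 estimates were all below 0, from -0.73 for Gata4 to -1.34 for Gata6, and none passed the test. For Sox17 and Pdgfra the minimum, passed through wild type at day 6 alone, favoured this sign, so the count is a description. Quantile normalization gave 307 genes higher and 225 lower over the whole table, in place of 177 and 231, and chromosome medians removed gave 266 and 127.

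**Figure D3:**
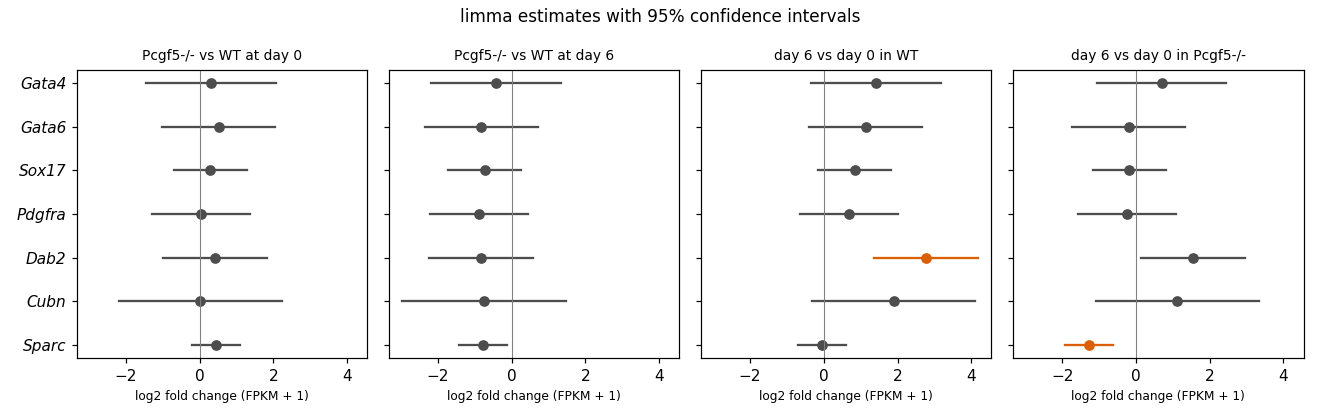
limma log2 fold changes on the FPKM + 1 scale (horizontal) with 95% confidence intervals for the 7 tested genes (vertical) in 4 comparisons, in orange where the adjusted p was under 0.05. The calls are the rise of Dab2 in wild type (2.78) and the fall of Sparc in Pcgf5-/- cells (-1.26), and between the genotypes at day 6 the intervals of all genes but Sparc cross 0.

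The endoderm that descends from these cells was followed with separate lists. Of 16 visceral endoderm genes, 14 were highest of all 8 samples in wild-type sample 1 at day 6, as were 7 of the 8 primitive endoderm genes. Of the tested genes this held for 6 of 8 visceral and 6 of 7 primitive endoderm genes, against 14.6% of all tested genes, with the limit that several of them entered the test through this sample. The trait was not particular to endoderm: 6 of 10 neural genes and 4 of 6 SPARC relatives and collagen partners were also highest there. It was met by 0 of 10 naive pluripotency genes, 0 of 22 fibroblast genes and 0 of 10 cardiac genes. Between the wild-type samples of day 6 alone, the summed naive pluripotency genes had 229 FPKM in sample 1 and 101 FPKM in sample 2. In wild-type sample 1 of day 6, 12 of the 16 visceral endoderm genes stood over 1 FPKM, against 2 to 5 in the other samples. Transthyretin (Ttr), a carrier of thyroid hormone, had 5.62 FPKM there, 0.334 FPKM in wild-type sample 2 and 0.747 and 0.129 FPKM in the Pcgf5-/- samples of day 6. Rbp4, which carries retinol, had 15.3 FPKM against 1.46, 2.07 and 2.96 FPKM. The endoderm factor Foxa2 (2.50 FPKM) and the serum proteins Afp (1.31 FPKM) and Apob (1.30 FPKM) were also highest there. By the test only Lrp2, or megalin, the partner of cubilin, was called higher over the 6 days, by 3.13 (SE 0.32) in wild type (limma adjusted p = 0.000151) and in Pcgf5-/- cells (limma adjusted p = 0.000469). Its values did not follow the sample number: 12.6 and 17.6 FPKM in wild type, against 17.7 and 11.8 FPKM without PCGF5 at day 6. Hhex, a homeobox factor of anterior visceral endoderm, fell by 0.61 (SE 0.21) in wild type (limma adjusted p = 0.0375) and was higher in Pcgf5-/- cells at day 6 by 0.73 (SE 0.21, limma adjusted p = 0.0477).

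Basement membrane genes, which parietal endoderm expresses strongly, were divided. Of 13 genes, all tested, 7 were highest in wild-type sample 1 at day 6, against 14.6% of all tested genes. Nid1, Nid2, Lamc1, Hspg2, Thbd and Snai1 were lower there than in at least 1 sample of day 0. Lama1, the laminin alpha chain of the earliest basement membranes, had 42.1 FPKM there, 7.92 FPKM in wild-type sample 2 and 10.6 and 3.52 FPKM in Pcgf5-/- cells. The collagen IV gene Col4a1 had 105 FPKM against 20.6, 19.4 and 8.99 FPKM. Lama1 and Col4a1 were the 2 genes of the list with sample 1 above sample 2 by at least 1 on the log2 scale in both genotypes. In wild type over the 6 days 5 of the 13 were called higher, a share near the 34.2% of all tested genes: Plat (3.00, SE 0.55), Col4a2 (2.82, SE 0.70), Col4a1 (2.77, SE 0.82), Pth1r (2.61, SE 0.44) and Lamb1 (1.80, SE 0.64). Nid1 (-2.94, SE 0.28), Nid2 (-2.02, SE 0.28) and Snai1 (-0.81, SE 0.27) fell. In Pcgf5-/- cells 0 rose and 3 fell, namely Nid1 (-2.38, SE 0.28), Snai1 (-1.60, SE 0.27) and Thbd (-1.20, SE 0.29). Between the genotypes at day 6, 1 gene was called, the nidogen gene Nid2, higher in Pcgf5-/- cells by 1.58 (SE 0.28, limma adjusted p = 0.0112). The median of this list between the genotypes at day 6 was -0.36 and that of the 8 tested visceral endoderm genes -0.76, beside 0.02 over all tested genes.

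The genes that set primitive endoderm against epiblast were listed as well. Of 16 such genes, 6 were higher in Pcgf5-/- cells at day 6, 0 were lower and 10 did not pass, with a list median of 0.43, where 9.57% of all tested genes were called higher. They were the epiblast factors Nanog (2.16, SE 0.26), Pou5f1 (2.03, SE 0.35) and Klf5 (1.40, SE 0.28), the ligand Fgf4 (2.02, SE 0.48), and Etv4 (2.096, SE 0.46) and Etv5 (1.63, SE 0.34), which respond to FGF. Nanog had 43.0 and 22.2 FPKM in wild type, against 144 and 139 FPKM without PCGF5 at day 6. It was lower than at day 0, where it stood between 290 and 391 FPKM. Over the 6 days 5 of the 16 rose and 7 fell in wild type, where 34.2% and 16.2% of all tested genes did, and 4 rose and 4 fell in Pcgf5-/- cells, where 21.9% and 10.4% did. The FGF receptor Fgfr2 rose by 3.59 (SE 0.26) in wild type and 2.91 (SE 0.26) in Pcgf5-/- cells. Dusp6, a phosphatase that acts on ERK, rose by 1.503 (SE 0.23) and 2.19 (SE 0.23). Fgfr1, the other main FGF receptor of these cells, rose by 0.98 and 0.63, Mapk3 (0.64) and Ptpn11 (0.61) rose in wild type, and Spry4 (1.92) rose in Pcgf5-/- cells. Falls in wild type were -3.60 for Klf5, -3.35 for Fgf4, -3.22 for Nanog, -2.57 for Pou5f1, -2.25 for Etv5, -1.52 for Etv4 and -0.73 for Sox2. In Pcgf5-/- cells Klf5 (-2.15), Fgf4 (-1.57), Nanog (-1.35) and Sox2 (-0.35) fell.

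Partners of the single genes gave few calls between the genotypes. Among the PDGF ligands and the second receptor, Pdgfa was higher in Pcgf5-/- cells at day 6 by 0.52 (SE 0.14, limma adjusted p = 0.0395), the 1 call of 4 tested. Pdgfa, Pdgfc and Pdgfrb fell over the 6 days in both genotypes, with -1.57 (SE 0.14) for Pdgfa in wild type and -0.96 (SE 0.14) in Pcgf5-/- cells. The partners of cubilin had no call between the genotypes among 5 tested, and Amn, which encodes amnionless, did not exceed 0.654 FPKM in any sample. Beside Lrp2, the megalin chaperone gene Lrpap1 fell in wild type (-0.84, SE 0.29). Of 6 SPARC relatives and collagen partners, Sparcl1 (-0.74, SE 0.19) and Spock1 (-0.72, SE 0.16) were lower in Pcgf5-/- cells at day 6. These and Spock2 rose over the 6 days in both genotypes, and Serpinh1, a collagen chaperone, rose in wild type by 1.41 (SE 0.41). Of the 7 GATA and SOX relatives and cofactors 3 were tested, and Gata3 rose in wild type by 0.93 (SE 0.24) and in Pcgf5-/- cells by 1.00 (SE 0.24).

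Other cell types that use some of these genes were checked by their own lists. For definitive endoderm and mesendoderm, 4 of 7 genes were tested, and Cxcr4, also used by neural precursors, was lower in Pcgf5-/- cells at day 6 (-1.63, SE 0.29, limma adjusted p = 0.0115). Over the 6 days Cxcr4 rose (3.85 in wild type and 2.18 in Pcgf5-/- cells), Gsc fell (-0.92 and -1.13), and Eomes fell in wild type (-1.49). Of 5 tested cardiac genes 1 was called higher and 1 lower between the genotypes at day 6, and of 2 tested oligodendrocyte genes none was. Of 10 naive pluripotency genes 9 were called higher and 0 lower at day 6 without PCGF5, whereas 0 of 10 neural genes were called higher and 7 lower. Of 9 endothelial genes, Cdh5 and Emcn did not exceed 0.423 and 0.243 FPKM, both highest in wild-type sample 1 at day 6 as were 4 of the 9, while Tek reached 3.06, Flt1 1.93 and Kdr 1.35 FPKM. The list had 0 limma calls among 3 tested in any comparison. The summed level of 22 fibroblast genes, which feeder cells express, was 363 to 482 FPKM in wild type and 309 to 1061 FPKM in Pcgf5-/- cells at day 0, and 110 to 260 and 86.5 to 86.7 FPKM at day 6. Of the 21 tested, 13 fell and 2 rose over the 6 days in wild type, 14 fell in Pcgf5-/- cells, and none was called between the genotypes at day 0. At day 6 1 of the 21, Lox, was lower in Pcgf5-/- cells (-1.76, SE 0.50, limma adjusted p = 0.0474), with a list median of -0.61. Pcgf5-/- sample 2 at day 0 had both the highest fibroblast sum and the highest Gata4, Gata6, Sox7, Sox17, Dab2 and Sparc of the 4 day 0 samples. Pdgfra was instead highest in wild-type sample 1 (1.09 FPKM) and Cubn in Pcgf5-/- sample 1 (0.0698 FPKM). The share of all tested genes highest in Pcgf5-/- sample 2 of that day is not given here. Col1a1, the main fibroblast collagen, had 117 and 64.6 FPKM in wild type, against 73.8 and 263 FPKM without PCGF5 at day 0, in the same order as Sparc (158, 124, 140 and 259 FPKM). The part of feeder cells in the day 0 values was not tested. At day 6 the higher sum in wild-type sample 2 came mostly from Acta2 (92.0 against 21.9 FPKM in sample 1) and Tagln (89.9 against 22.0 FPKM), and the other 20 genes summed to 78.7 and 66.0 FPKM.

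**Figure D4:**
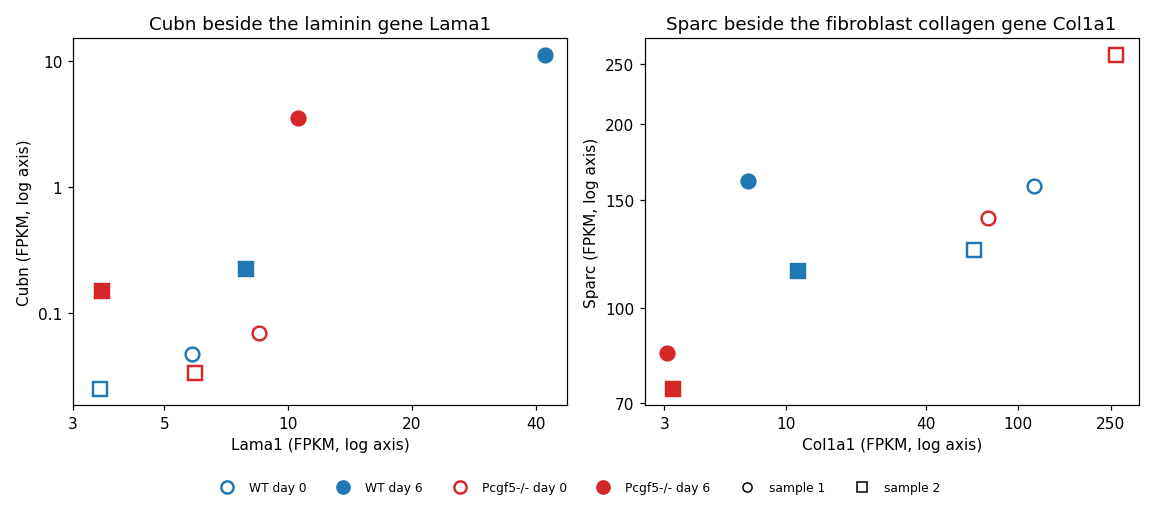
FPKM on log axes of Cubn against the laminin gene Lama1 (left) and of Sparc against the collagen gene Col1a1 (right), 1 point for each of the 8 samples, with open symbols for day 0, filled for day 6, circles for sample 1 and squares for sample 2. Cubn and Lama1 are both highest in wild-type sample 1 at day 6 (11.2 and 42.1 FPKM), and Sparc and Col1a1 are both highest in Pcgf5-/- sample 2 at day 0 (259 and 263 FPKM).

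Across the 8 samples the members other than Sparc followed each other. Their 21 pairwise Pearson correlations of log2(FPKM + 1) lay between 0.632 and 0.986, while the 7 correlations with Sparc lay between -0.177 and 0.408. These describe 8 samples that share conditions and libraries, and wild-type sample 1 of day 6 weighs on all of them. Among all tested genes, those most like Cubn were Tfec (r = 0.996), Nostrin (0.995) and S100g (0.989). Cubn itself was the gene most like Gata4 (0.975), followed by S100g and Nostrin (both 0.961). Hs3st1, an enzyme of heparan sulphate synthesis, came first for Gata6 (0.971) and Sox17 (0.984) and came after Tgfbr3 (0.956) and before Sox17 (0.945) for Pdgfra (0.950). For Gata6 the next were Sox17 (0.947) and Ndrg4 (0.945), and for Sox17 Hkdc1 and Fxyd3 (both 0.967). The genes nearest to Dab2 were Clcn5 (0.983), Lhx5 (0.981) and Mast1 (0.981), and Lhx5 is a LIM homeobox gene of the neural plate. Fndc3b (0.970), C2cd2l (0.963) and Ap2a2 (0.962) were nearest to Sparc. Levels of the neighbours differed widely, from Ap2a2 with 28.5 to 43.0 FPKM over all samples to S100g, which was listed at 0 in all day 0 samples and had 3.23 and 0.190 FPKM in the wild-type and 0.924 and 0 FPKM in the Pcgf5-/- samples of day 6.

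The order of the 8 genes by level was led by Sparc and then by Dab2 at day 6. In wild-type sample 1 at day 6 all 8 stood over 1 FPKM, in the order Sparc, Dab2, Cubn, Gata4, Gata6, Pdgfra, Sox17 and Sox7. In wild-type sample 2 at day 6 only Sparc and Dab2 did so, and in the Pcgf5-/- samples of day 6 the number was 5 and 3. At day 0 between 1 and 4 of the 8 stood over 1 FPKM. Cubn and Gata4 were neighbours in wild-type sample 1 of day 6 with Cufflinks bounds of 10.6 to 11.7 and 9.42 to 11.6 FPKM, which overlap.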

How the data were processed

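Poly(A)-selected RNA was sequenced from 8 samples, 2 in each of 4 conditions. Before alignment of the read pairs to build mm9, the authors cut off adapters and poor read ends and discarded reads that were short, exact copies of another read or rich in undetermined bases. The submitters' processing notes name TopHat2 2.0.4 and Cufflinks 2.1.1. The annotation is not given in the sources used here. The deposited values are FPKM, which the authors computed with Cufflinks and which are scaled for library size and gene length. Removal of identical reads can lower the most abundant transcripts. Tables were joined by gene name and locus.

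Values were analysed as log2(FPKM + 1), so a fold change of a low gene is smaller than the ratio of its FPKM. limma 3.58.1 in R 4.3.3 was fitted with a variance trend and no replicate block to all 13214 genes with a mean over 1 FPKM in at least 1 condition, over all 8 samples. Benjamini-Hochberg adjusted p-values under 0.05 were called, and the fit was tested on simulated data. The labels call the samples biological replicates without saying how the cultures were separated, so p-values measure the spread between these samples.

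All 8 genes are named in every sample. From the lists of endoderm genes and of the partners of the 8 genes, those past 0.05 are named, the other lists are given as counts, and for each tested gene the 3 genes with a locus of at least 300 bp and the highest Pearson r. Single genes named for their level (Ttr, Rbp4, Foxa2, Afp, Apob, Amn, Lama1, Col1a1, Sox1, Sox10, Olig2, Cspg4, Tek, Flt1, Kdr, Acta2, Tagln, Cdh5 and Emcn) were picked with their values in view, as were the counts by sample number. The genes and lists were chosen with earlier results of these data known. Alternatives were 2 other pseudocounts, 2 other minimums, 2 other scalings, removal of chromosome medians, a replicate block over all samples or for each day, a fit of the compared groups alone, a fit without the trend and each sample left out in turn. Tables and plots used Python 3.11.15, pandas 2.3.3 and matplotlib 3.10.9.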

Additional observations from a re-analysis of the deposited data

Results flagged for a closer look

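For 2 genes of the lists the genotype effect at day 6 differed from that at day 0 by limma's interaction test. Nanog differed by 1.88 on the log2 scale (SE 0.36, limma adjusted p = 0.0396): it had 306 and 290 FPKM in wild type, against 391 and 335 FPKM without PCGF5 at day 0, and 43.0 and 22.2 FPKM against 144 and 139 FPKM at day 6. Nid2, a nidogen of basement membranes, differed by 1.88 (SE 0.40, limma adjusted p = 0.0491): it had 68.7 and 70.8 FPKM in wild type, against 57.0 and 56.0 FPKM without PCGF5 at day 0, and 22.2 and 12.1 FPKM against 64.4 and 40.4 FPKM at day 6. None of the 7 primitive endoderm genes tested passed it, and Sox7 was not tested.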

How the results depend on the processing

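Whole-table settings left 343 values on their side of the threshold and in their direction, moved 9 across it and turned the sign of 6. Those turned were Pdgfra at day 0 between the genotypes (-0.10 with quantile normalization, -0.017 with median of ratios, -0.055 with chromosome medians removed), Cubn (-0.087) and Sparc (-0.087) at day 0 with chromosome medians removed, and Sparc over the 6 days in wild type with quantile normalization (0.11). Between the genotypes at day 6 the number of the genes called was 1 (Sparc) in place of 0 with chromosome medians removed and with only the compared groups. Over the 6 days in wild type it was 2 (Dab2 and Cubn) at a pseudocount of 0.01. In Pcgf5-/- cells it was 2 (Dab2 and Sparc) with only the compared groups, a setting that gives no value for the difference between the days. Over the whole table these settings, block fits included, gave 0 to 237 genes higher and 1 to 45 lower between the genotypes at day 0 (38 and 6 in the report), 941 to 1887 and 508 to 1348 at day 6 (1265 and 932), 2757 to 5167 and 1691 to 4075 over the days in wild type (4522 and 2146), 1885 to 3717 and 1021 to 2046 in Pcgf5-/- cells (2898 and 1373), and 31 to 557 and 55 to 610 for the difference between the days (177 and 231). The cause was not tested.

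The numbers in the labels are not stated to mark a shared culture or day. The methods of the study describe fold changes between paired samples of the genotypes, without saying how the pairs were formed. The differences of sample 1 from sample 2 correlated over all tested genes at 0.39 between the genotypes at day 6, 0.10 at day 0 and -0.08 to -0.02 across the days. A replicate block over all samples changed no call among the 8 genes. With a replicate block for each day, 4 genes were called higher in wild type (Gata4, Sox17, Dab2 and Cubn) and 3 were called in Pcgf5-/- cells (Dab2 and Cubn higher, Sparc lower).

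With 1 sample left out, the lone sample is taken to vary like the other conditions. The number of genes called then ranged from 0 to 0 between the genotypes at day 0, 0 to 2 at day 6, 1 to 7 over the 6 days in wild type, 0 to 2 in Pcgf5-/- cells and 0 to 1 for the difference between the days. Dab2 in Pcgf5-/- cells was added without either wild-type sample of day 6. Ranges that crossed 0 between the genotypes were, at day 0, -0.29 to 0.37 for Pdgfra, -0.019 to 0.83 for Dab2, -0.0042 to 0.045 for Cubn and -0.0022 to 0.88 for Sparc, and at day 6, -1.81 to 0.96 for Gata4, -1.95 to 0.31 for Gata6, -1.85 to 0.20 for Dab2 and -2.41 to 0.90 for Cubn. Sox17 and Pdgfra have no fit without wild-type sample 1 of day 6, since both then fall under the minimum; their plain differences of means were 0.046 and 0.13 between the genotypes at day 6, Pdgfra had -0.34 over the days in wild type, and the difference between the days was 0.088 for Pdgfra. Ranges over the days that crossed 0 were -0.28 to 0.20 for Sparc in wild type and -0.68 to 0.28 for Gata6, -0.44 to 0.078 for Sox17 and -0.62 to 0.12 for Pdgfra in Pcgf5-/- cells, and for the difference between the days -2.11 to 0.66 for Gata4 and -2.43 to 0.88 for Cubn. Over the whole table, calls at day 6 between the genotypes fell from 1265 higher and 932 lower to 196 and 138 without Pcgf5-/- sample 1 of day 6. With 2 samples in a condition and no fragment counts, small changes of genes under 1 FPKM could not be resolved.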

Other observations

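A gap between the samples of day 6 of at least 1 on the log2 scale in both genotypes was reached by 0.242% of all tested genes. Of the 8 primitive endoderm genes only Gata4 and Cubn reached it. By any amount, all 8 stood higher in sample 1 in both genotypes, as did 32.7% of all tested genes. Of the 32 genes with sample 1 above sample 2 by at least 1 on the log2(FPKM + 1) scale in both genotypes, 20 had a locus of at least 300 bp. Srgn, the proteoglycan serglycin, led these 20 and was followed by Cubn, Fgf5, Spry4 and Capn3 when ranked by the smaller of the 2 differences. Srgn had 28.4 and 1.68 FPKM in wild type, against 9.75 and 0.888 FPKM without PCGF5 at day 6. Fgf5 and Spry4 were ordered otherwise between the genotypes: Fgf5, a marker of the later epiblast, had 3.33 and 0.525 FPKM in wild type, against 8.19 and 2.15 FPKM without PCGF5, and Spry4, an inhibitor of FGF signalling, had 5.81 and 1.45 FPKM against 21.4 and 6.82 FPKM. These genes were picked out after their values had been seen.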
